A study of Mus musculus with 10 samples.

Results

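Serine palmitoyltransferase is the enzyme that begins sphingolipid synthesis, and 9 genes that encode its subunits, its regulators and the next enzyme of the pathway were described in oesophageal tissue of mice: Sptlc1, Sptlc2, Sptlc3, Sptssa, Sptssb, Ormdl1, Ormdl2, Ormdl3 and Kdsr. They were taken by gene name from a table of read counts for 22740 protein-coding genes, and all 9 were found. All 9 also passed the filter on low counts, as did 13731 genes in all. The set was chosen by the measured drop of Sptlc3 between the genotypes, in these same libraries, so the differences of these 9 genes between genotypes are given as a description and no test is read from them.

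Serine palmitoyltransferase joins the amino acid serine to a fatty acyl-CoA, in the membrane of the endoplasmic reticulum, and so commits both to sphingolipids. SPTLC1 pairs with either SPTLC2 or SPTLC3, which carry the catalytic cofactor, and the partner influences the length of the fatty acyl-CoA that is used. SPTSSA and SPTSSB are small subunits that raise the activity, the ORMDL proteins restrain it when ceramide is plentiful, and KDSR reduces the first product. In stratified epithelia such as skin, ceramides made by this route are part of the barrier of the surface layers.

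Expression was measured by poly(A) RNA sequencing in 5 libraries labelled Grhl3 knockout (Grhl3 KO) and 5 labelled wild type, all from C57BL/6 mice given 4-NQO, a chemical carcinogen that gives rise to squamous tumours of the mouth and oesophagus. GRHL3 is a transcription factor of the grainyhead-like family that acts in surface epithelia, and the comparison asks how its loss changes expression. The Grhl3 KO samples were oesophageal tumour by label and the wild-type samples oesophageal tissue only, although the series' design text speaks of tumours in both and of separate mice, so genotype and tissue label cannot be told apart. The series title calls the animals cKO and the Grhl3 KO columns of the table carry "L2Cre"; its meaning, and which cells lost the gene, are not stated in the labels.

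Total counts were 15.3 to 32.9 M in Grhl3 KO and 17.8 to 23.4 M in wild type. Levels are given as CPM, counts scaled per M (mega) of library size. The counts of Grhl3 itself did not set the genotypes apart, with 135 to 317 CPM under the Grhl3 KO label and 109 to 363 CPM under the wild-type label, so gene-level counts do not check the label, and every direction here is that of the labels. All 12 squamous epithelium markers were detected, with summed levels of 51531 to 67702 CPM in Grhl3 KO and 45225 to 110520 CPM in wild type, and no marker was called between genotypes in any of the 10 marker lists by the test defined below. The 14 skeletal muscle markers were all higher on average in Grhl3 KO, with sums of 841 to 6466 CPM against 1485 to 3369 CPM, ranges that overlapped. Of all markers only Dcpp1, a gland gene, was at 0 in every library. The Y-linked gene Eif2s3y stood at 0 and 0.0539 CPM in wild-type libraries 1528 and 1555 and at 24.9 CPM in 1561, against 68.4 to 75.6 CPM in the other 7 libraries. Y-linked RNA thus varied among wild-type libraries but not among Grhl3 KO libraries, and results without these libraries are given beside Sptlc3. In bulk tissue, fewer cells of a type and less RNA per cell cannot be told apart.

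The gene starts of the 2 alternative catalytic partners differed in sequence. The 250 bases before each start are shown because Sptlc3 and Sptlc2 encode alternative subunits and only Sptlc3 was picked for its drop. Capitals mark CG dinucleotides; the bases come from RefSeq, build GRCm38.p6, and are written from 5′ to 3′ in the direction of transcription. The Sptlc3 window is chr2:139493663-139493912 on the plus strand and the Sptlc2 window chr12:87388356-87388605 on the minus strand.
Sptlc3: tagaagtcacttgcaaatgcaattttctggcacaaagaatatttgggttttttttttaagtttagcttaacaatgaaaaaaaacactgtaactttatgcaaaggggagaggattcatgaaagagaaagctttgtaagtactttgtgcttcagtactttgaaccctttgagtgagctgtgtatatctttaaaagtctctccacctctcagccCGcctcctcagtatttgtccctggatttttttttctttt
Sptlc2: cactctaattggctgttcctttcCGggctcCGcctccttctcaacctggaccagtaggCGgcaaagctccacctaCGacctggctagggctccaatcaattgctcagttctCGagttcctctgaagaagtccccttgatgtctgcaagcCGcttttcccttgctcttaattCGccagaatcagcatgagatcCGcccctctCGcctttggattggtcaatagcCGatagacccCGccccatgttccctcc
The Sptlc3 window held 1 CG dinucleotide and 35.6% G or C, and the Sptlc2 window 11 and 55.2%. All 9 genes had an entry in the RefSeq table, and the windows of the other 7 held 9 to 28 CG dinucleotides and 53.2 to 68.8% G or C. Among 32851 windows of this length the medians were 6 CG dinucleotides and 52.4%, 18.8% of windows had no more CG dinucleotides than Sptlc3, and 5.8% had no more G or C. Both strands were searched for the grainyhead motif AACCGGTT, for CCGGTT, which lies inside it, and for the TATA box TATAAA. No member window held any of them, while 0.116%, 5.62% and 12.4% of all windows did, in that order.

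Sptlc3 (ENSMUSG00000039092, chromosome 2, 139493913 to 139637674, plus strand, GRCm38) was the member for which the set was picked. In Grhl3 KO libraries 1026, 1027, 1035, 1036 and 1043 it had 53, 70, 55, 21 and 25 reads, or 3.33, 2.24, 1.59, 0.827 and 1.49 CPM. In wild-type libraries 1028, 1048, 1528, 1555 and 1561 it had 742, 292, 492, 798 and 231 reads, or 35.0, 15.4, 25.9, 43.0 and 10.9 CPM. The lowest wild-type library, 1561, thus lay above the highest Grhl3 KO library, 1026, and within each genotype the libraries spread about as widely, 3.96-fold from lowest to highest in wild type and 4.03-fold in Grhl3 KO. The means were 1.90 ± 0.947 CPM for Grhl3 KO against 26.0 ± 13.3 CPM for wild type (SD, n = 5 each here and below), a 13.9-fold lower level in Grhl3 KO. On the log2 scale the difference was -3.79, with 95% limits of -4.81 and -2.78. No other annotated gene shared its exons or a near-identical stretch of its transcript.

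**Figure D1:**
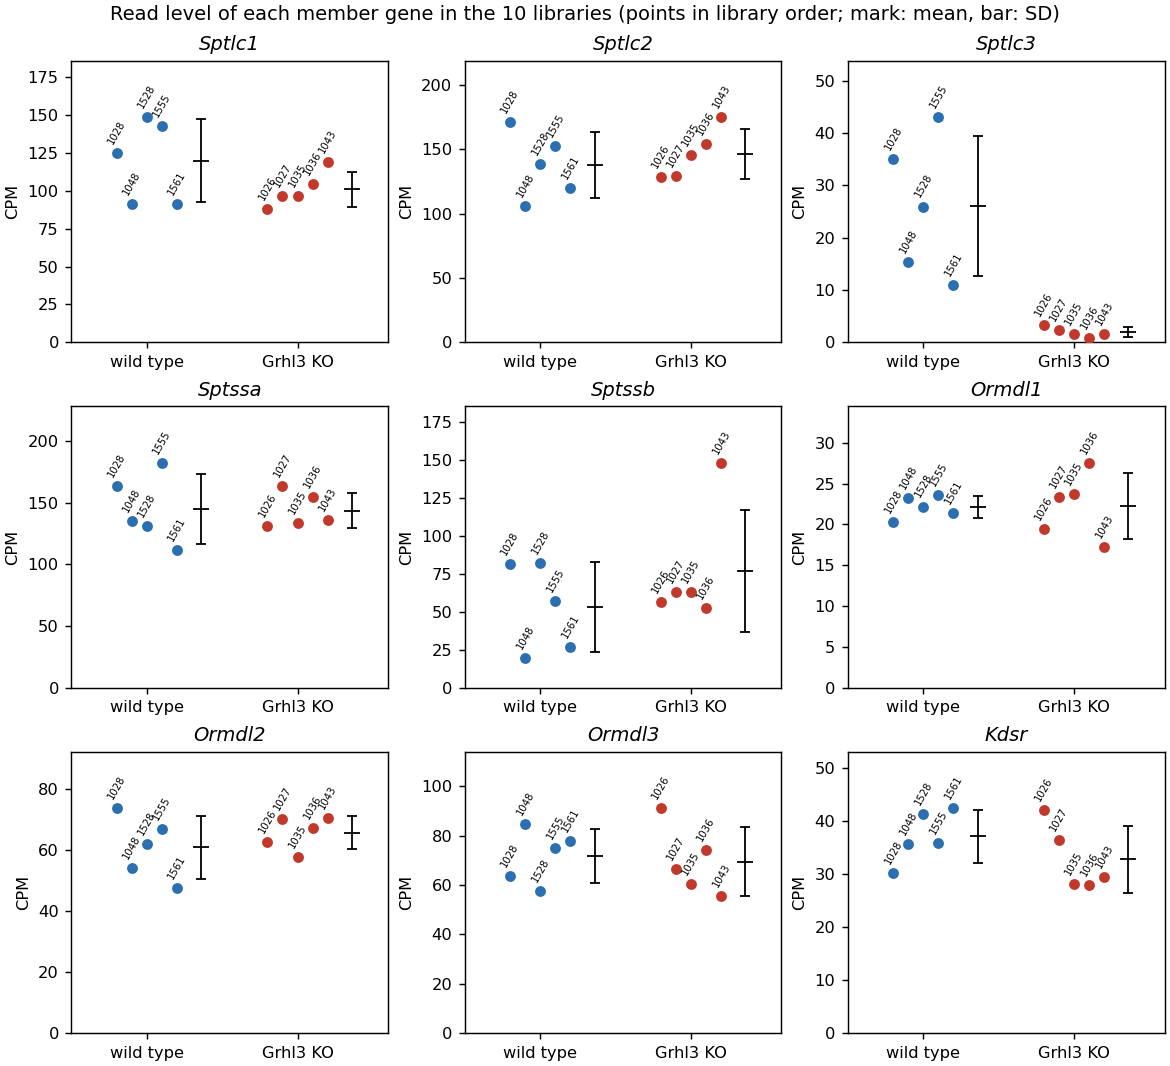
Read level (CPM, vertical axes from 0) of each of the 9 genes in the 5 wild-type and 5 Grhl3 KO libraries; points are libraries with their sample numbers, and the mark and bar beside them are the mean and SD. Sptlc3 sits between 0.827 and 3.33 CPM in Grhl3 KO and between 10.9 and 43.0 CPM in wild type, while the genotypes overlap for the other 8 genes.

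Over the 23 alternative analyses the Sptlc3 difference lay between -4.07 and -3.44; its sign was fixed by the choice of the gene, whose genotypes do not overlap, and is no sign of stability. Without wild-type libraries 1528 and 1555, which lacked Y-linked RNA, it was -3.44, and without 1561 as well it was -3.74. With the level of Y-linked genes as a covariate it was -3.45, and with the level of squamous markers -3.58. By edgeR's quasi-likelihood test over all genes, with Benjamini-Hochberg adjusted p under 0.05, 1 of the 9 genes was called, Sptlc3 (adjusted p = 0.0318), where 0.0801% of all genes were called and 0.051% were called lower. By the same edgeR test the adjusted p rose above 0.05 without Grhl3 KO library 1027, 1035, 1036 or 1043 or without wild-type library 1528 or 1555 (0.0555 to 0.106), and reached 0.243 without 1528, 1555 and 1561. Sptlc3 was also the only member whose genotypes did not overlap, against 1.35% of all genes in either direction and 0.568% lower in Grhl3 KO; as the set was picked for it, nothing is read from these counts.

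Within the wild-type libraries Sptlc3 had nearly the same order as Krt13, a keratin of the upper layers of oesophageal epithelium, which was chosen for this after its values were seen. Krt13 stood at 4958, 9402, 17059, 18119 and 43057 CPM in wild-type libraries 1561, 1048, 1528, 1555 and 1028, and Sptlc3 had the same order except that 1555 exceeded 1028. In Grhl3 KO libraries 1035, 1036, 1026, 1027 and 1043, Krt13 stood at 8366, 14278, 14429, 14826 and 20771 CPM. Sptlc3 did not have that order there, with 1.59, 0.827, 3.33, 2.24 and 1.49 CPM in the same sequence of libraries. Over the 10 libraries, deviations from the genotype means of the 12 squamous markers together had Pearson r = 0.66 with those of Sptlc3. Without the 2 libraries farthest from the marker median r was 0.40. The Krt13 values of Grhl3 KO lay inside the wild-type range, and the part of differentiation or cell make-up in the Sptlc3 difference was not tested.

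**Figure D2:**
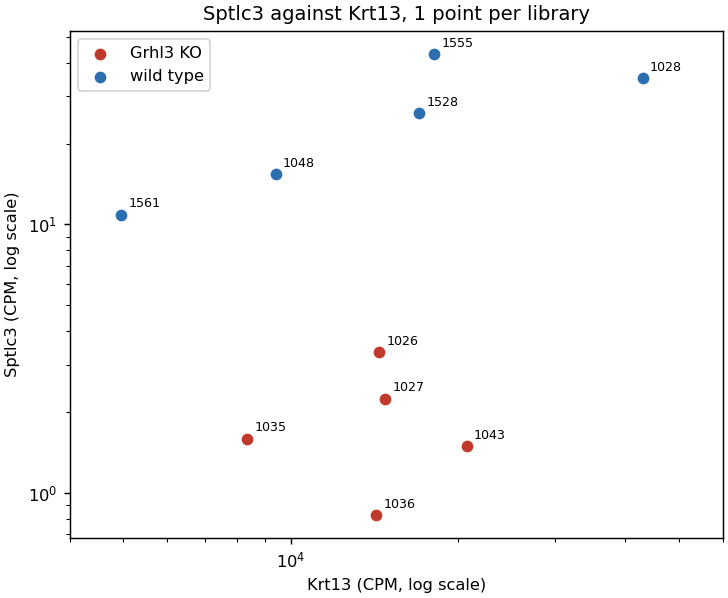
Sptlc3 against Krt13 in the 10 libraries, both in CPM on log axes; each point is 1 library with its sample number. All 5 wild-type libraries lie at 10.9 CPM of Sptlc3 or more and all 5 Grhl3 KO libraries at 3.33 CPM or less, while Krt13 overlaps between genotypes.

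Sptlc1 (chromosome 13, 53332748 to 53377397, minus strand) encodes the subunit that both catalytic partners need. It stood at 88.2, 96.6, 96.5, 105 and 119 CPM in Grhl3 KO libraries 1026, 1027, 1035, 1036 and 1043 and at 125, 91.0, 149, 143 and 91.6 CPM in wild-type libraries 1028, 1048, 1528, 1555 and 1561. The means were 101 ± 11.7 and 120 ± 27.5 CPM, and the log2 difference was -0.25 (95% limits -0.59 and 0.09). The genotypes overlapped, and wild-type libraries 1528, 1555 and 1028 were the 3 highest of all. Without libraries 1528 and 1555 the Sptlc1 difference was -0.02.

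Sptlc2 (chromosome 12, 87305058 to 87388355, minus strand) encodes the widely expressed catalytic subunit. It stood at 128, 129, 146, 154 and 175 CPM in Grhl3 KO libraries 1026, 1027, 1035, 1036 and 1043 and at 171, 106, 138, 153 and 120 CPM in wild-type libraries 1028, 1048, 1528, 1555 and 1561. The means were 146 ± 19.3 and 138 ± 25.9 CPM, with a log2 difference of 0.09 (95% limits -0.22 and 0.39). The genotypes overlapped, with Grhl3 KO library 1043 and wild-type library 1028 the highest of all.

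Per kilobase of exon, which allows levels of different genes to be compared, Sptlc3 made up 36.8, 29.3, 34.8, 44.5 and 20.5% of the sum of Sptlc2 and Sptlc3 in wild-type libraries 1028, 1048, 1528, 1555 and 1561. In Grhl3 KO libraries 1026, 1027, 1035, 1036 and 1043 it made up 6.91, 4.70, 3.02, 1.51 and 2.38%. The mean shares were 33.2 ± 8.95% and 3.70 ± 2.14%, so Sptlc2 made up nearly all of these transcripts in Grhl3 KO and most of them in wild type. The share depends on the length correction: as plain read counts it was 15.1% in wild type and 1.34% in Grhl3 KO, and with the length of the longest transcript 29.8% and 3.18%. The sum of Sptlc2 and Sptlc3 was 26.1 ± 7.57 CPM per kilobase in wild type (18.5 to 34.0) and 18.7 ± 2.15 in Grhl3 KO (16.7 to 22.1), and these ranges overlapped. Relative to Sptlc1, Sptlc2 alone ran from 0.408 to 0.600 in wild type and from 0.588 to 0.662 in Grhl3 KO. Only wild-type library 1028 reached the Grhl3 KO range. The lowest ratios, 0.408 and 0.468, were those of wild-type libraries 1528 and 1555, which lacked Y-linked RNA. Wild-type libraries 1048 and 1561 had 0.510 and 0.575.

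**Figure D3:**
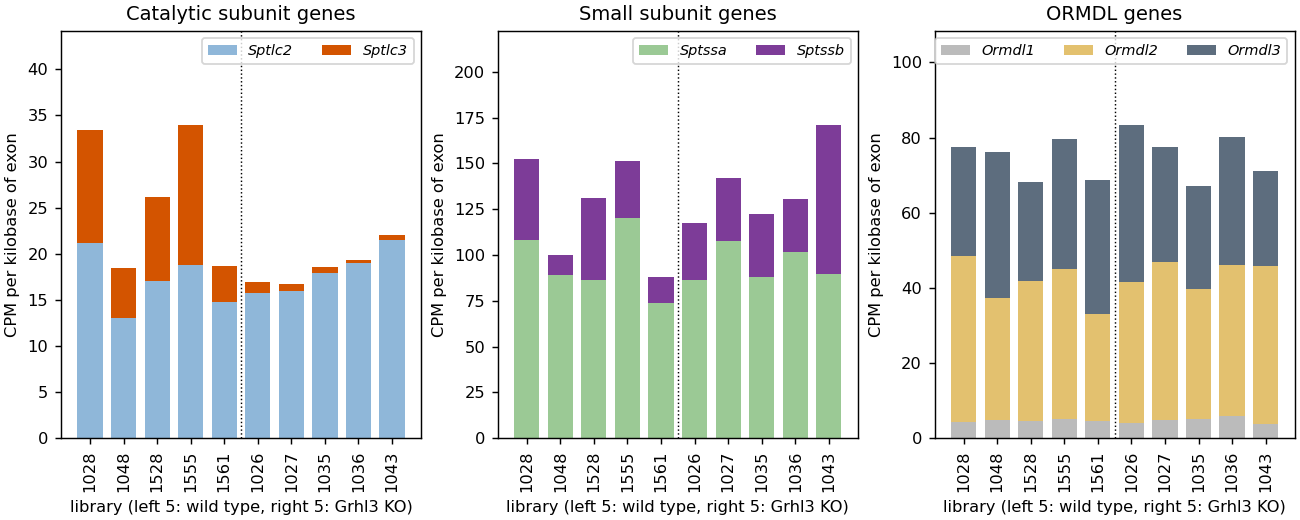
Stacked levels in CPM per kilobase of exon (vertical axes from 0) in each library, wild type on the left of the dotted line and Grhl3 KO on the right, for the catalytic, small and ORMDL genes. The Sptlc3 part of the first panel is 20.5 to 44.5% of the bar in wild type and 1.51 to 6.91% in Grhl3 KO, while Sptssb in library 1043 makes up 47.5% of its bar in the second panel.

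Sptssa (chromosome 12, 54645392 to 54656573, minus strand) encodes one of the small activating subunits. It ranged from 131 to 163 CPM in Grhl3 KO and from 112 to 182 CPM in wild type, with means of 144 ± 14.4 and 145 ± 28.1 CPM. The log2 difference was -0.01 (95% limits -0.30 and 0.28), and the genotypes overlapped throughout.

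Sptssb (chromosome 3, 69819542 to 69859940, minus strand) encodes the other small subunit, which widens the enzyme's use of longer fatty acyl-CoAs. It stood at 56.5, 63.2, 63.2, 52.5 and 148 CPM in Grhl3 KO libraries 1026, 1027, 1035, 1036 and 1043, and at 81.4, 19.5, 81.8, 57.1 and 26.4 CPM in wild-type libraries 1028, 1048, 1528, 1555 and 1561. Library 1043 stood alone at the top, and wild-type libraries 1048 and 1561 lay below all Grhl3 KO libraries. The means of 76.7 ± 40.2 and 53.2 ± 29.5 CPM gave a log2 difference of 0.53 with wide limits (-0.42 and 1.48), which was 0.14 without library 1043. Per kilobase, Sptssb was 22.0 to 47.5% of the small subunit transcripts in Grhl3 KO and 10.7 to 34.2% in wild type.

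The 3 ORMDL genes, whose products sense ceramide and inhibit the enzyme, showed small differences. Ormdl1 (chromosome 1, 53297095 to 53310309, plus strand) stood at 22.3 ± 4.00 CPM in Grhl3 KO against 22.2 ± 1.38 in wild type, a log2 difference of 0.01 (95% limits -0.27 and 0.29). Ormdl2 (chromosome 10, 128817902 to 128821645, minus strand) stood at 65.6 ± 5.40 and 60.9 ± 10.3 CPM, a difference of 0.11 (-0.15 and 0.37). Ormdl3 (chromosome 11, 98581256 to 98587368, minus strand), the member of the family best known from human asthma genetics, stood at 69.5 ± 14.0 and 71.7 ± 11.0 CPM, a difference of -0.05 (-0.37 and 0.28). The genotypes overlapped for all 3, and their sum per kilobase was 67.2 to 83.3 in Grhl3 KO and 68.1 to 79.5 in wild type. Ormdl2 and Ormdl3 shared near-identical stretches with a processed pseudogene each, over 29.2 and 21.2% of their longest transcript, Ormdl1 shared 8.7% of its exons with the gene model Gm28778, and 66.7% of the Ormdl2 exons lay opposite Dnajc14. The counts are named reverse-stranded, which sets reads of the opposite gene Dnajc14 apart by strand. The labels do not state how reads of the other shared stretches were assigned. These counts are therefore less certain than those of Sptlc1, Sptlc2, Sptlc3 and Sptssb, which had no such stretch.

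Kdsr (chromosome 1, 106720459 to 106759727, minus strand) encodes the reductase that acts on the product of serine palmitoyltransferase. It stood at 42.1, 36.4, 28.1, 27.9 and 29.4 CPM in Grhl3 KO libraries 1026, 1027, 1035, 1036 and 1043 and at 30.2, 35.6, 41.3, 35.8 and 42.4 CPM in wild-type libraries 1028, 1048, 1528, 1555 and 1561. Grhl3 KO libraries 1035, 1036 and 1043 were the 3 lowest, but 1026 was among the highest. The means were 32.8 ± 6.29 and 37.1 ± 4.94 CPM, with a log2 difference of -0.18 (95% limits -0.49 and 0.13).

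The 8 genes other than Sptlc3 thus had log2 differences between -0.25 and 0.53, 4 higher and 4 lower in Grhl3 KO, with a median of -0.00. The median of all genes tested was also -0.00. None of the 8 was called by edgeR, DESeq2 or limma voom, and none had an unadjusted edgeR p under 0.05, where 7.16% of all genes did. The scatter within genotypes differed between members: the within-group SD of log2 CPM stood at the 91.8th percentile of all tested genes for Sptssb and at the 90.9th for Sptlc3, and between percentiles 34.1 and 51.7 for the other 7.

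Per kilobase of exon in wild type, Sptssa had the highest level of the 9 genes at 95.4 ± 18.5 CPM per kilobase. Ormdl2 (36.5 ± 6.16), Sptlc1 (33.7 ± 7.74), Ormdl3 (32.8 ± 5.04) and Sptssb (29.2 ± 16.2) followed, and each of these 4 exceeded the next gene in the order in only 3 of 5 libraries, so with this length their order was not beyond the spread. Sptlc2 at 17.0 ± 3.19 lay above Sptlc3 at 9.15 ± 4.69 in 5 of 5 libraries. Sptlc3 lay above Ormdl1 (4.70 ± 0.292) in 4 of 5, and Kdsr (4.55 ± 0.607) could not be set apart from Ormdl1. In Grhl3 KO, Sptlc3 had the lowest level of the 9, 0.667 ± 0.333 CPM per kilobase, and Sptssb the highest mean after Sptssa, 42.0 ± 22.0, with library 1043 at 81.2. The order depends on the length used: with that of the longest transcript, Sptlc1 (46.0 ± 10.6) lay above Ormdl2 (38.7 ± 6.54) in 5 of 5 wild-type libraries, and Sptlc3 lay above Ormdl1 in only 3 of 5.

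Deviations from the genotype means were compared between the 36 pairs of members over the 10 libraries. The strongest relation was that of Sptlc1 with Sptssb (Pearson r = 0.88, exact permutation p = 0.0131, Benjamini-Hochberg adjusted 0.182; Spearman rho = 0.87, exact permutation p = 0.0108). Without the 2 libraries farthest from the median by Sptlc1 r was 0.76, and within the 7 libraries of 1 number series it was 0.91. Those 7 hold only 1028 and 1048 of wild type. Both checks kept Grhl3 KO library 1043, which stood alone at the top for Sptssb, and its part in the relation was not tested. Sptlc2 with Sptssb followed at r = 0.85 (rho = 0.76, exact permutation p = 0.00931 for r and 0.0344 for rho), and Sptssb with Ormdl3 was the most negative at -0.77 (rho = -0.83, exact permutation p = 0.0185 and 0.00861). No pair passed the adjustment over the 36 pairs.

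The other genes of sphingolipid metabolism were taken as 6 lists with 87 genes in the table, of which 80 passed the filter. None was called by edgeR, against 0.0801% of all genes. An unadjusted p under 0.05 was found for 8, or 10% of the 80 where 7.16% of all genes had one. Of these 8, 7 were lower in Grhl3 KO, where 511 of all 983 genes with such a p were lower. The direction of these 8 was not tested. DESeq2 called 1, Smpd1, and limma voom none. The 80 split into 39 higher and 41 lower, with a median log2 difference of -0.00, and 3 did not overlap between genotypes, where 1.35% of all genes did not.

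**Figure D4:**
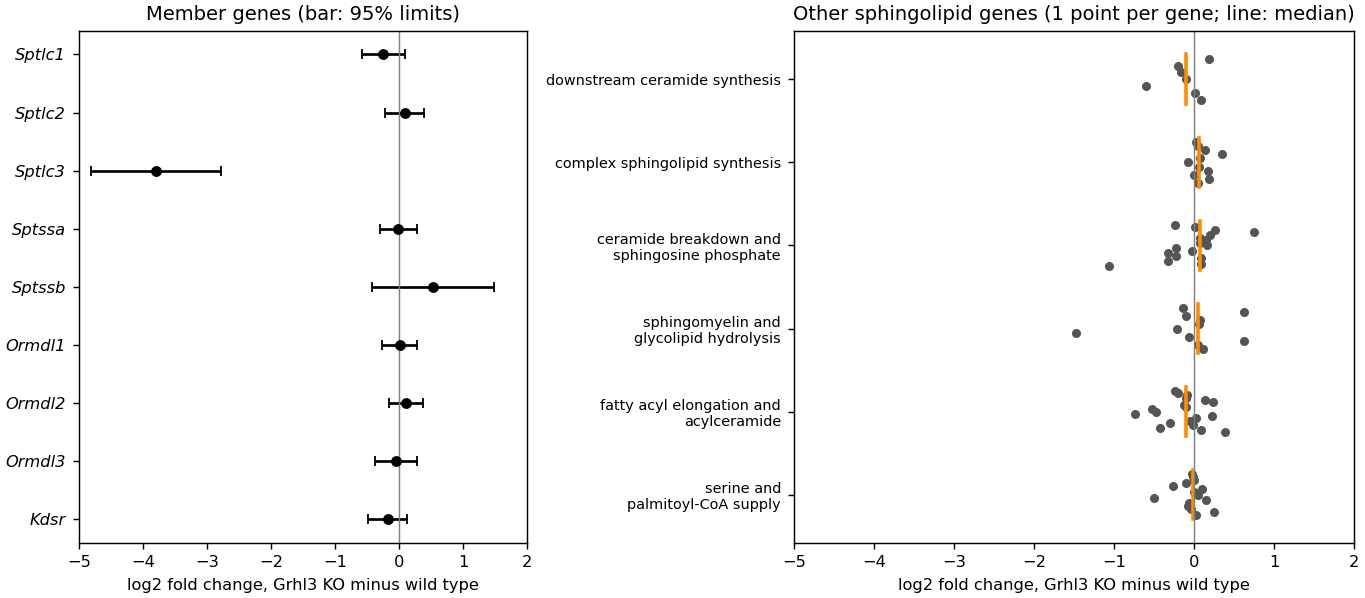
Log2 fold change, Grhl3 KO minus wild type, for the 9 members with 95% limits (left) and for the 80 tested genes of the 6 other lists, 1 point per gene with the list median as a line (right). Sptlc3 lies at -3.79, the other 8 members between -0.25 and 0.53, and the other genes between -1.48 and 0.74.

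In the steps from dihydrosphingosine to ceramide, 3 of 7 tested genes were higher and 4 lower, none called (0 with an unadjusted p under 0.05). Cers3, the ceramide synthase of very long acyl chains in stratified epithelia, stood at 176 ± 41.4 CPM in Grhl3 KO against 176 ± 43.5 in wild type. Degs1, the desaturase that completes ceramide, stood at 308 ± 35.1 and 356 ± 80.7 CPM, a log2 difference of -0.21 (95% limits -0.55 and 0.13). Cers4, another ceramide synthase, was at 6.20 ± 1.53 and 9.46 ± 5.64 CPM, a difference of -0.61 (-1.45 and 0.24).

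Among 11 genes of complex sphingolipid synthesis 9 were higher and 2 lower, none called and 1 with an unadjusted p under 0.05. That gene was Samd8, a sphingomyelin synthase relative, at 43.1 ± 6.39 CPM in Grhl3 KO against 33.9 ± 3.30 in wild type (log2 difference 0.35, edgeR adjusted p = 0.51). Ugcg, which makes glucosylceramide, was at 150 ± 36.7 and 147 ± 55.1 CPM, and Gltp, a glycolipid transfer protein, at 613 ± 135 and 647 ± 239 CPM.

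Among 17 genes of ceramide breakdown and sphingosine phosphate 10 were higher and 7 lower, none called. Acer1, an alkaline ceramidase of differentiating epidermis, was the only one with an unadjusted p under 0.05, at 15.9 ± 9.25 CPM in Grhl3 KO against 33.1 ± 22.1 in wild type (log2 difference -1.06, edgeR adjusted p = 0.692). Sgpp2, a sphingosine phosphate phosphatase, was at 173 ± 91.2 and 103 ± 48.8 CPM, a difference of 0.74 (95% limits -0.14 and 1.63). Ppap2c, a lipid phosphate phosphatase, did not overlap between genotypes, yet its means of 118 ± 2.03 and 107 ± 7.07 CPM differed by only 0.14 on the log2 scale.

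Among 11 genes of sphingomyelin and glycolipid hydrolysis 6 were higher and 5 lower, none called. Smpd1, the acid sphingomyelinase of lysosomes, stood at 25.5, 32.7, 22.5, 25.5 and 26.7 CPM in Grhl3 KO libraries 1026, 1027, 1035, 1036 and 1043 and at 66.2, 33.6, 76.7, 93.0 and 100.1 CPM in wild-type libraries 1028, 1048, 1528, 1555 and 1561. The genotypes did not overlap, but wild-type library 1048 came within 1 CPM of Grhl3 KO library 1027. The log2 difference was -1.48 (95% limits -2.02 and -0.93) with an edgeR adjusted p of 0.0834, which was 0.00311 without library 1048 and, by DESeq2, 1.25e-05. Within the libraries of 1 number series, that is without 1528, 1555 and 1561, the difference was -0.91 (edgeR adjusted p = 0.604). Gba2, a glucosylceramidase outside lysosomes, and Smpdl3a, a relative of acid sphingomyelinase, had differences of 0.62 each with limits that spanned 0.

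Among 19 genes of fatty acyl elongation and acylceramide synthesis 13 were lower and 6 higher, none called. An unadjusted p under 0.05 was found for 4, all lower, or 21.1% where 7.16% of all genes had one. This share was not tested. The 4 genes were the elongases Elovl4, Elovl5 and Elovl6 and the reductase Tecr of the same elongation cycle. Of these, Elovl5 was named after its values were seen. Elovl4, which makes the ultra-long acyl chains of barrier ceramides, stood at 214 ± 57.0 CPM in Grhl3 KO against 358 ± 132 in wild type (log2 difference -0.74, edgeR adjusted p = 0.575). Elovl6 stood at 45.4 ± 4.87 and 65.6 ± 17.6 CPM (-0.53, edgeR adjusted p = 0.478), but its difference within 1 number series was -0.15. Tecr stood at 75.1 ± 4.69 and 89.1 ± 9.43 CPM (-0.25, edgeR adjusted p = 0.562) with no overlap between genotypes. The gap was small, from 80.7 CPM in Grhl3 KO library 1043 to 81.5 CPM in wild-type library 1048. Within 1 number series the Tecr difference was -0.14 and that of Elovl4 was -0.70.

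Among 15 genes that supply serine and palmitoyl-CoA, the substrates of the enzyme, 5 were higher and 10 lower, none called. Dbi, an acyl-CoA binding protein, had an unadjusted p under 0.05, at 173 ± 32.2 CPM in Grhl3 KO against 244 ± 60.7 in wild type (log2 difference -0.50, edgeR adjusted p = 0.586). Psat1 and Psph, of serine synthesis, differed by 0.09 and -0.27 on the log2 scale with limits that spanned 0.

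Among the genes whose log2 CPM was most like that of Sptlc3 over the 10 libraries were C130079G13Rik (Pearson r = 0.98), Gm9696 (0.94), 1700055N04Rik (0.94) and Dlg2 (0.93). These values include the step between genotypes, these 4 genes were lower in Grhl3 KO with no overlap, and they are given as a description without a test. C130079G13Rik, a gene with no established name, stood at 0.907 ± 0.363 CPM for Grhl3 KO and 7.59 ± 3.29 CPM for wild type. Gm9696 ranged from 0.224 to 0.503 CPM in Grhl3 KO and from 1.05 to 2.05 CPM in wild type. 1700055N04Rik ranged from 0.096 to 0.231 CPM in Grhl3 KO and from 0.632 to 3.23 CPM in wild type. For Gm9696 and 1700055N04Rik, r and the lack of overlap thus rest on few reads in Grhl3 KO. Dlg2 ranged from 1.02 to 2.58 CPM in Grhl3 KO and from 2.68 to 14.5 CPM in wild type. By deviations from the genotype means, which remove the step between genotypes, Lrmp (r = 0.97), Zscan26 (0.95), Hdac5 (0.92) and Aoc2 (0.92) were among the most like Sptlc3. These 4 overlapped between genotypes. They too were picked as the top of 13731 tested genes over 10 libraries, and are given as a description without a test. None of the genes named by one measure was named by the other, but only 5 genes were taken by each. By deviations r was 0.85 for C130079G13Rik, 0.86 for Dlg2, 0.53 for 1700055N04Rik and 0.44 for Gm9696. Over the 10 libraries r was 0.88 for Hdac5, 0.58 for Aoc2, 0.54 for Zscan26 and -0.29 for Lrmp.

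The tested genes beside Sptlc3 on chromosome 2 had smaller differences than Sptlc3. The nearest tested genes before it were Btbd3 (log2 difference -0.09), the Notch ligand Jag1 (-0.12) and Slx4ip (0.07), and those after it were Ism1 (-0.94), Tasp1 (0.05) and Esf1 (0.15). Ism1, whose start lies 184 kb from that of Sptlc3, was low, at 1.24 ± 0.685 CPM in Grhl3 KO against 2.37 ± 2.20 in wild type, with 95% limits of -2.31 and 0.43. Among the 24 other tested genes with a start within 5 Mb, none was called by edgeR and 2 had an unadjusted p under 0.05, or 8.33% where 7.16% of all genes did. These 2, named after their values were seen, were Kif16b, 0.41 higher with no overlap between genotypes, and Macrod2, at -0.69.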

How the data were processed

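The deposited table holds raw read counts per protein-coding gene, made by the authors with featureCounts against GRCm38, per the submitters' processing notes; the aligner, the versions and the annotation were not given in the sources used here. Stranded poly(A) libraries were made, per the labels' protocols. The 10 columns were joined to the samples by number; 0 columns of other samples and 0 lines without a gene name were present, and 4661 genes were at 0 throughout.

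Genes were kept with filterByExpr (minimum count 10, minimum total 15) and tested with the robust quasi-likelihood F-test of edgeR 4.0.16 in R 4.3.3 after TMM scaling, Grhl3 KO against wild type without covariates, with Benjamini-Hochberg adjustment over the 13731 genes and a threshold of 0.05. This test was checked on simulated data. CPM are TMM-scaled, and log2 CPM carry a prior count of 2. Levels per kilobase use the length covered by all exons in GENCODE M21. Near-identical stretches were found with blastn 2.17.0. Total counts set the precision of low genes: 21 to 70 reads stand behind the Grhl3 KO values of Sptlc3.

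Alternatives were DESeq2 1.42.0, limma 3.58.1 (voom), other scalings and filters, leaving out libraries, and covariates. The number series are a possible batch: wild-type libraries 1528, 1555 and 1561 carry numbers far from the other 7, the labels do not say why, and the second series holds no Grhl3 KO library. Members, lists and tests were chosen with earlier results of these data known. Named were the 9 members; in each list the called genes, the 3 of smallest p and the 2 most abundant, the text giving those that bear on its counts; the 5 genes most like Sptlc3 by each measure; and 3 tested neighbours on each side. Some genes that this rule takes are not reported here.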

Additional observations from a re-analysis of the deposited data

Results flagged for a closer look

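Among 76 groups of 5 libraries examined, 18 of them for member genes, 6 held a library whose gap to the nearest of the others exceeded 0.71 of the group's range, which chance gives in about 1 in 20 groups. Library 1043 of Grhl3 KO accounted for 4 of the 6. These are not independent, as the Sptssb level and Sptssb share of library 1043 rest on the same counts. Its Sptssb level was 148 CPM, with the next library at 63.2 CPM, and Sptssb made up 47.5% of its small subunit transcripts, with the next at 28.3%. It also had the highest Acer1 in its group, 32.0 CPM against 14.1 CPM in the next, and the lowest Acer3, 21.1 CPM against 32.7 CPM. Wild-type library 1028 had the lowest Acer3 of its group, 29.2 CPM against 40.4 CPM. Grhl3 KO library 1035 had the highest Psph of its group, 43.6 CPM against 30.6 CPM. Library 1043 also had the highest skeletal muscle marker sum of all libraries, 6466 CPM, and its part in these values was not tested.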

How the results depend on the processing

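Across all genes, edgeR called 11, and the count was 119 by DESeq2, 1 by limma voom and 7 without a filter on low counts. It was 1 without wild-type libraries 1528 and 1555, 1 within the 7 libraries of 1 number series, 1 with Y-linked genes as a covariate, and 1 to 16 when each library was left out in turn; the cause was not tested. The other scalings gave 11 each and moved the median of all genes by no more than 0.02. Of the sphingolipid lists, 0 genes were called, and 1 (Smpd1) by DESeq2; leaving out each library gave 0 to 1, the 1 being Smpd1 without wild-type library 1048.

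Sptlc3 was chosen for its drop in these same libraries, so no test is read from its adjusted p-values here. The Sptlc3 difference ran from -4.07 to -3.54 when each library was left out. Its adjusted p was under 0.05 in 4 of those 10 fits and in 13 of all 23 alternatives. By limma voom the adjusted p of Sptlc3 was 0.0961. Its mean share of the catalytic transcripts was 15.1% in wild type and 1.34% in Grhl3 KO without length correction, a change that follows from the greater exon length of Sptlc2, and 30.4 to 36.4% and 2.90 to 4.25% when each library was left out. Among the other members, Sptlc1, Sptssa, Ormdl1 and Ormdl3 changed sign in some alternatives, within -0.33 to 0.08. No paired analysis was possible because the sample numbers of the genotypes are all different. The depth limits Sptlc3 in Grhl3 KO, where library 1036 held 21 reads.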
